A study of Danio rerio with 20 samples.

Results

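The 150 loci described here had lower values at every examined time after cardiac cryoinjury than in the non-injured heart, with the means of the injured groups close to each other. RNA was sequenced from ventricular apexes of zebrafish (Danio rerio, genotype WT) in 5 groups of 4 libraries. One group was non-injured, and the others were taken 1.5, 3, 7 and, last, 14 dpci (days post cryoinjury, which is made by freezing the apex with a cold probe). Each library held 3 to 4 pooled apexes of male and female fish of 5 to 12 months, with no age or sex given per group. All groups shared the genotype, and the control fish had no injury. The libraries are called replicates here, and the labels give no further link between them.

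The members were chosen from the values themselves, by a rule that used all 20 libraries. Of 66128 loci in the table, 20007 had a mean of at least 50 over the 20 libraries. In 368 of these, the highest of the 16 injured values was below the lowest of the 4 non-injured values. In 305 of the 368, the 4 injured group means of log2(value + 1) were also within 1 of each other. Leaving out the loci that were among the 100 highest in non-injured mean removed 5 of these, and 300 remained. These were ranked by their smallest fall, which is the smallest of the 4 differences between the non-injured mean and an injured mean of log2(value + 1), and the first 150 were taken. The falls, the lack of overlap and the closeness of the injured groups are therefore given as descriptions with no test.

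Zebrafish rebuild heart muscle after injury. Freezing kills the tissue of the apex, including cardiomyocytes, endothelial cells and fibroblasts, and immune cells, fibroblasts and epicardial cells then populate the wound before muscle regrows around and into it. RNA from an apex therefore comes from a mixture of surviving and arriving cells whose proportions shift with time. In bulk tissue of this kind, fewer cells of a type and less RNA per cell cannot be told apart.

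The values are reads per locus divided by a size factor of the library. The locus numbers could not be paired with gene names: the name column follows another order than the values, and the rows that carry the names of the heart muscle genes myl7 and vmhc had means of 1.005 and 1.16. No member is therefore given a gene, a role or a sequence, the apex could not be checked against its markers, and members are named by rank, with 2 locus numbers printed. Depth was similar across groups, with 19349169 to 32939806 recovered reads in 19 libraries, of which 155490 to 422387 fell on the members. The fewest reads behind any member in any of these libraries was 15.

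The first-ranked locus, XLOC_059560, had the largest smallest fall. Its values were 1575, 1623, 2057 and 1661 in the non-injured libraries. The 1.5 dpci libraries had 380, 356, 581 and 372 and the 3 dpci libraries 421, 624, 578 and 508. The 7 dpci libraries had 324, 385, 568 and 383, and those of 14 dpci had 650, 490, 515 and 488. The highest injured library was thus far below the lowest non-injured one, by 1.28 on the log2(value + 1) scale, which was the widest gap of all members. The falls were 2.05, 1.70, 2.08 and 1.69 in order of time, and 24.0% to 31.0% of the non-injured mean was left.

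XLOC_059634 was the most abundant member in non-injured hearts and ranked 147. The non-injured libraries had values of 15321, 14586, 21095 and 19989. The 1.5 dpci libraries had 4775, 7622, 7188 and 6159, and the 3 dpci libraries 5543, 5942, 5847 and 8260. The 7 dpci libraries had 11723, 11673, 13169 and 9118, and those of 14 dpci had 10300, 12291, 10414 and 11643. All 8 libraries of the late time points lay above all 8 of the early ones and below all non-injured libraries. The falls were 1.47 and 1.47 at 1.5 and 3 dpci and 0.63 and 0.65 at 7 and 14 dpci. With all libraries scaled to the same total they were 1.08, 1.17, 0.50 and 0.57, and the early and late libraries then overlapped.

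**Figure D1:**
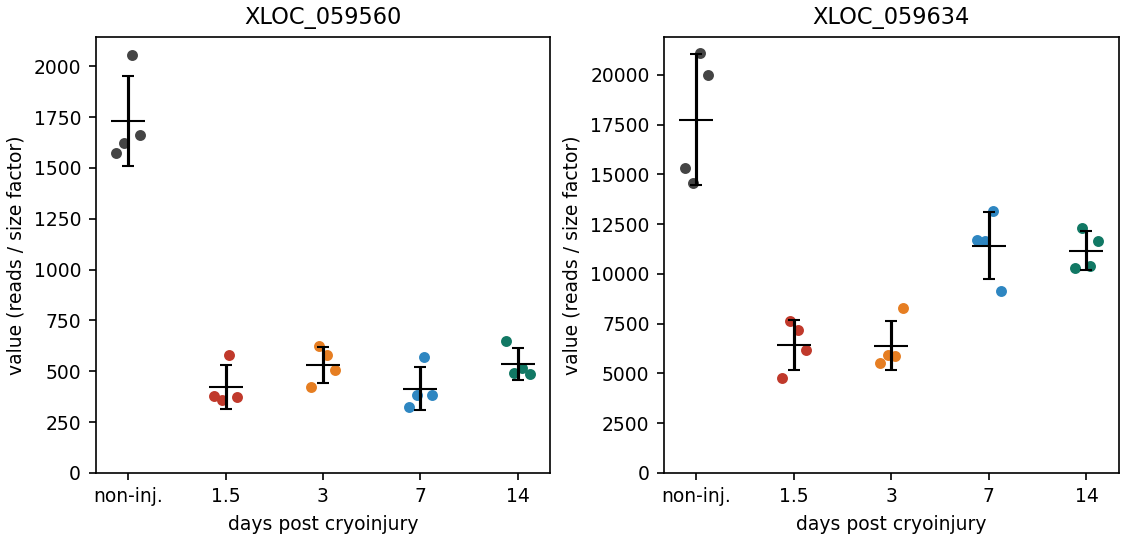
Value (reads divided by the size factor of the library) of the first-ranked and the most abundant member, on an axis from 0, in the non-injured group and by days post cryoinjury. Points are libraries, and the horizontal and vertical bars are the mean and SD of 4 libraries. XLOC_059560 stayed at a similar low level at all 4 times, while XLOC_059634 lay higher at 7 and 14 than at 1.5 and 3 dpci. The rule fixes that both lie below non-injured at all 4 times, with injured means within 1 on the log2(value + 1) scale. With all libraries scaled to the same total, the early and late libraries of XLOC_059634 overlapped.

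Rank 24, the second most abundant member, and rank 120 also had higher means at 7 and 14 than at 1.5 and 3 dpci. Rank 24 had a mean of 17619 ± 4824 (SD, n = 4) in non-injured hearts, 4435 ± 718 at 1.5 dpci, 5642 ± 1038 at 3 dpci, 8014 ± 1385 at 7 dpci and 8085 ± 1989 at 14 dpci. One non-injured library of rank 24 was at 10559, close to the highest injured value of 10126, while the other 3 were between 18498 and 20916. Rank 120 had a mean of 16970 ± 2246 in non-injured hearts, 6222 ± 692 at 1.5 dpci, 5671 ± 543 at 3 dpci, 10106 ± 1050 at 7 dpci and 10376 ± 1613 at 14 dpci. Rank 6, with a non-injured mean of 8600 ± 2608, was lowest at 1.5 dpci (2053 ± 592) and did not climb in the same way, with means of 3127, 3590 and 2880 at the later times.

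The level of the members spanned more than 2 orders of magnitude. Their non-injured means ran from 84.0 to 17748 with a median of 811. In all, 26 members had a non-injured mean under 200, 58 were from 200 to 1000, 44 from 1000 to 5000, and 22 were at 5000 or over. Together they held 1.39% ± 0.146 (SD, n = 4) of all values of a non-injured library, and 0.775% ± 0.049 at 1.5 dpci, 0.697% ± 0.065 at 3 dpci, 0.797% ± 0.099 at 7 dpci and 0.760% ± 0.034 at 14 dpci. The 4 non-injured libraries lay between 1.24% and 1.58%, and the 16 injured libraries between 0.626% and 0.914%.

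The median fall of the members was 1.13 at 1.5 dpci, with a range of 0.65 to 2.06. It was 1.20 (0.65 to 2.07) at 3 dpci, 0.99 (0.63 to 2.08) at 7 dpci and 1.06 (0.62 to 1.81) at 14 dpci. The median of all 20007 loci with a mean of at least 50 was 0.03, 0.03, 0.03 and -0.01 at the same times. In terms of level, the median member kept 45.6%, 42.8%, 50.2% and 48.3% of its non-injured mean. Over all injured libraries together the share left ran from 27.5% to 62.0%, and 43 members were under 50% at each of the 4 times.

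By the limma model over all 62594 loci with any value above 0 (adjusted p below 0.05), 146 members were called lower at 1.5 dpci, where 10.1% of all loci were. At 3 dpci 148 were called, beside 10.4% of all loci, at 7 dpci 138 beside 5.45%, and at 14 dpci 143 beside 6.63%. With the side of the first principal component as a term, 46 and 50 members were called at 7 and 14 dpci. Of all loci, 390 and 554 were then called. Against non-injured replicates 1 and 2 alone the counts were 43 and 44 members, beside 370 and 507 loci. Against replicates 3 and 4 alone they were 136 and 138 members, beside 5571 and 6257 loci. The side term and replicates 1 and 2 alone are related settings, since only these non-injured libraries share the side of 7 and 14 dpci. Over all loci, 3412 were called lower at 7 dpci and 4151 at 14 dpci, but 1656 and 2134 without non-injured replicate 3, and 1651 and 2185 without replicate 4. In the model of all libraries, all 4 calls held for 132 members, beside 0.829% of all loci. Groups that do not overlap were found in 1.84% of loci with a mean of at least 50 and in 0.791% of all loci tested. These counts restate the rule, which used the same contrasts, and nothing is read from them.

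The edge of the set is not a break in the data. Rank 150 had a smallest fall of 0.618, with non-injured values of 3510, 3532, 4405 and 4047 and values of 2488, 2798, 2411 and 2372 at 14 dpci. The next locus in rank, the first outside, had a smallest fall of 0.617, with values of 283, 253, 320 and 285 in non-injured hearts and 171, 159, 222 and 194 at 7 dpci. A further 63 loci had groups that did not overlap but injured means more than 1 apart. The gap between the lowest non-injured and the highest injured value was under 0.1 on the log2 scale in 41 members and at least 0.5 in 9. In rank 102 it was only 0.00063, with a non-injured library and a 14 dpci library both at 535.

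With the direction of the rule reversed, 461 loci (2.30% of those with a mean of at least 50) had all injured values above all non-injured values, and 252 passed the other steps. The 150 taken by the same ranking rose by medians of 1.24, 1.49, 1.13 and 0.97 at 1.5, 3, 7 and 14 dpci. The smallest change was 1.69 at rank 1 and 0.618 at rank 150 among the lowered loci, and 2.83 and 0.546 among the raised ones. The medians of the smallest change were 0.87 in the lowered and 0.86 in the raised set. With all libraries scaled to the same total, 638 raised and 209 lowered loci had groups that did not overlap. On that scale 346 raised and 174 lowered loci passed the rule. The filter on the mean also counts mostly injured libraries, which are high in raised loci and low in lowered ones.

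**Figure D2:**
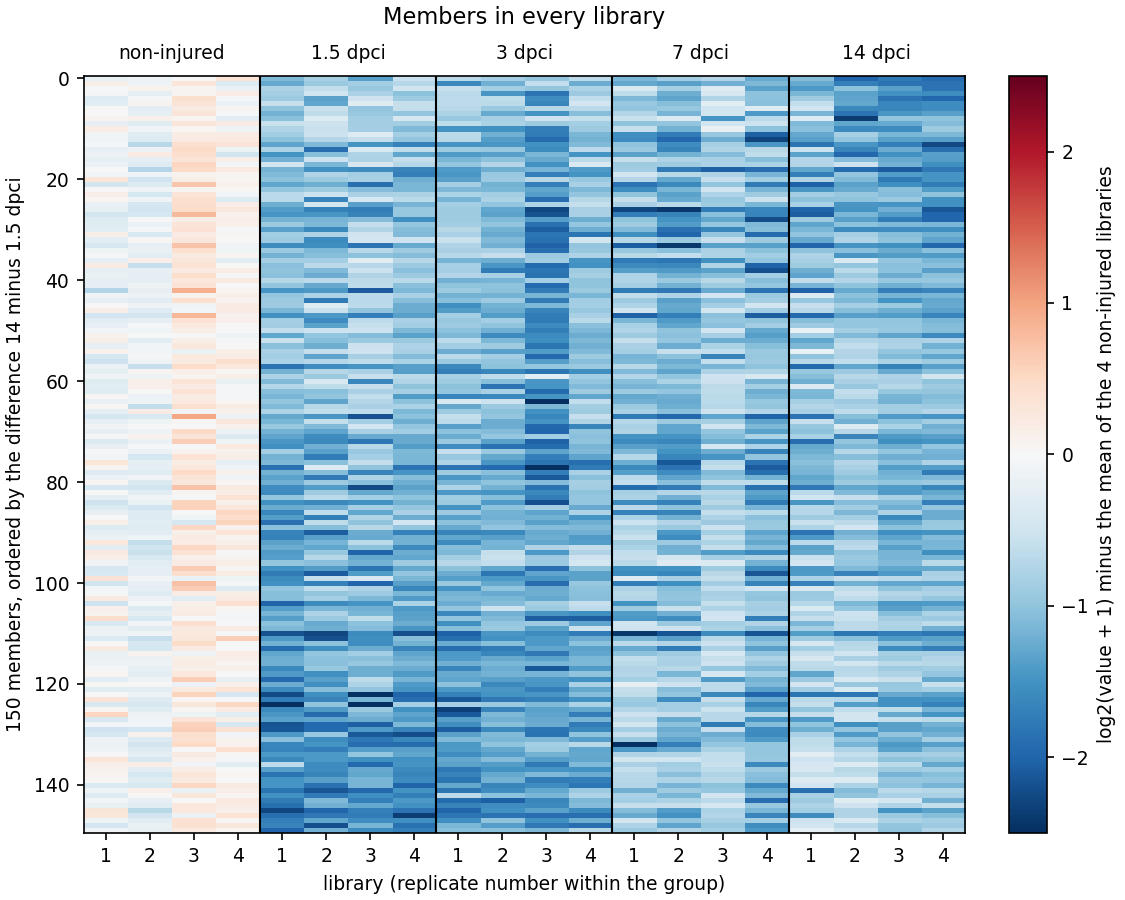
Colour gives log2(value + 1) minus the mean of the 4 non-injured libraries for each of the 150 members (vertical axis, ordered by the difference between 14 and 1.5 dpci) in each of the 20 libraries (horizontal axis). All injured columns are blue (lower), and replicate 3 at 3 dpci is a dark column in the middle rows. By the ordering, the top rows are lower at 14 than at 1.5 dpci and the bottom rows lower at 1.5 than at 14 dpci.

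The rule kept the injured means within 1 of each other, and the courses within that limit are given as descriptions. The lowest mean was at 1.5 dpci in 41 members, at 3 dpci in 61, at 7 dpci in 19 and at 14 dpci in 29. Each member has its lowest mean at some time even if the injured groups do not differ, so no course is read from these counts. The fall averaged over 7 and 14 dpci was smaller than that over 1.5 and 3 dpci in 99 members and larger in 51, with a median difference of -0.11 (late minus early). This direction turned with the scaling: with all libraries scaled to the same total, the late fall was smaller in 57 of the 150 members and the median difference was 0.12. The median falls on that scale were 0.74, 0.90, 0.86 and 0.97 in order of time. The spread of the injured means had a median of 0.51 and ranged from 0.04 to 0.99.

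The 3 members with the largest difference of 14 above 1.5 dpci were ranks 145, 102 and 148. Rank 145 had values of 119, 109, 150 and 130 in non-injured hearts, 31.1, 54.4, 41.6 and 37.7 at 1.5 dpci, and 106, 86.1, 62.3 and 75.7 at 14 dpci. Means of 768, 232 and 440 were found for rank 102 and 3707, 1273 and 2382 for rank 148 in the same 3 groups. In these 3 loci the libraries of 14 dpci lay above those of 1.5 dpci without overlap. The differences of the means were 0.99, 0.96 and 0.90 on the log2(value + 1) scale. The loci were picked for this difference, so nothing is read from the lack of overlap. The difference also depends on the scaling. With the same total per library, the median fall of all loci with a mean of at least 50 was -0.35 at 1.5 dpci and -0.10 at 14 dpci.

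The opposite course was shown by ranks 91, 55 and 125. Rank 91 had values of 1321, 1387, 1539 and 1946 in non-injured hearts, 711, 858, 599 and 1040 at 1.5 dpci, and 724, 388, 447 and 401 at 14 dpci. Of the 14 dpci libraries, 3 lay below all of 1.5 dpci, and replicate 1 did not. The non-injured, 1.5 and 14 dpci means were 490, 254 and 154 for rank 55 and 3618, 2233 and 1374 for rank 125. The differences of 14 minus 1.5 dpci were -0.73, -0.72 and -0.72 in ranks 91, 55 and 125. These 3 were also picked for the difference, which depends on the scaling here too. The same total per library lowered the members' median fall more at 1.5 dpci (1.13 to 0.74) than at 14 dpci (1.06 to 0.97). This moves differences of 14 minus 1.5 dpci downward, so positive ones shrink and negative ones grow in size.

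The rule limits the differences between injured groups, so nothing is read from the calls between them. At 7 against 3 dpci 22 members were called higher, beside 8.44% of all loci, and 0 lower, beside 9.31%. At 14 against 1.5 dpci 24 were called higher (14.6% of all loci) and 5 lower (18.1%). At 3 against 1.5 dpci the counts were 1 higher (4.86%) and 3 lower (4.57%), and at 14 against 7 dpci 0 higher (0.105%) and 0 lower (0.299%). The F test over the injured groups called 39 members, beside 40.0% of all loci.

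The courses of the members are described here by class of abundance, with no test. The share of all loci that fell less late than early is not given here. The 22 members with non-injured means of 5000 or over had median falls of 1.21, 1.36, 0.87 and 0.81 at 1.5, 3, 7 and 14 dpci, and 21 of the 22 fell less late than early. The 26 members under 200 had median falls of 1.02, 1.18, 1.01 and 1.05, and 16 of the 26 fell less late than early. With the same total per library, 16 of the 22 abundant members and 8 of the 26 under 200 fell less late. The median share left at 14 dpci was 56.4% in the abundant class and 48.7% in the class under 200. Under the deposited scaling, 33 of the 58 members from 200 to 1000 and 29 of the 44 from 1000 to 5000 fell less late. The stretches of neighbouring loci described below hold 0 of the 22 abundant members and 11 of the 26 under 200. Abundance and place in a stretch were not told apart here.

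The rule made no use of the locus number, and the members were unevenly spread over the numbers. Within 1 number of another member lay 38 of the 150 members, 55 lay within 5 and 59 within 10. When the rule was applied to libraries scaled to the same total, 22 of the loci it took lay within 5 of another. Of all 20007 loci with a mean of at least 50, 141 lay within 1 number of a member, 452 within 5 and 824 within 10. These counts over all loci include the members that lay near another member. Among the 150 raised loci, 26, 32 and 34 lay within 1, 5 and 10 of another raised locus. Numbers were given when assembled transcripts of the libraries were merged into loci. Since names and coordinates are not paired with them, whether neighbours in number are neighbours in the genome, overlap or share reads was not tested.

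Joining members no more than 10 numbers apart gave 5 stretches of 4 or more members, a definition chosen after the spacing was seen. These stretches hold 43 members within 80 numbers, while 91 members had no other member within 10 numbers and 16 fell in 8 pairs or triples. The same definition gave 1 stretch of 12 loci in the raised set. The stretches hold 12 of the 20 first-ranked members, and none of the 22 members with a non-injured mean of 5000 or over.

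Stretch 1 had 13 members within 19 numbers and 6 of the 10 first-ranked members. Its median falls were 1.50, 1.24, 1.56 and 1.53 in order of time. Rank 2 is its first-ranked member, with values of 215, 275, 451 and 335 in non-injured hearts, 107, 99.8, 107 and 135 at 1.5 dpci, 163, 114, 66.3 and 156 at 3 dpci, 102, 94.2, 190 and 89.3 at 7 dpci and 111, 144, 145 and 93.1 at 14 dpci. Non-injured means of the members of this stretch ran from 112 to 4497. The rule took large smallest falls and injured means close to each other, so like falls among members are partly built in. Falls of the 13 members of stretch 1 at 1.5 dpci were all between 1.35 and 1.63. They were more spread at the other times, with 0.95 to 1.38 at 3 dpci, 1.36 to 2.02 at 7 dpci and 1.25 to 1.73 at 14 dpci.

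Stretch 2 had 13 members within 20 numbers, and stretch 3, whose last member was 14 numbers before the first of stretch 2, had 8 within 19. The median falls were 0.97, 1.11, 0.98 and 1.05 in stretch 2 and 0.92, 1.14, 1.03 and 1.24 in stretch 3. Rank 33, the first-ranked member of stretch 2, had values of 292, 307, 409 and 304 in non-injured hearts and 119, 136, 75.1 and 156 at 3 dpci. Rank 13, the first-ranked member of stretch 3, had values of 167, 196, 263 and 199 in non-injured hearts and 126, 88.8, 47.7 and 87.1 at 3 dpci. In both, replicate 3 was the highest of the non-injured libraries and replicate 3 of 3 dpci the lowest of its group.

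Stretch 4 had 5 members within 13 numbers and stretch 5 had 4 within 9. Stretch 4 fell most at 7 dpci, with median falls of 0.83, 1.32, 1.58 and 1.07. Its first-ranked member, rank 62, had 152, 153, 206 and 201 in non-injured hearts and 67.1, 65.7, 69.2 and 37.5 at 7 dpci. Stretch 5 had median falls of 0.88, 1.26, 0.80 and 1.33. Its first-ranked member, rank 56, had 128, 109, 162 and 124 in non-injured hearts and 57.2, 35.5, 46.5 and 50.1 at 14 dpci.

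The 5 stretches also hold 16 loci with a mean of at least 50 that are not members. All 16 were lower than non-injured at all 4 times, beside 26.9% of all loci with such a mean. Of the 16, 2 had groups that did not overlap, beside 1.84% of all loci with such a mean. The median falls of the 16 were 0.73, 1.05, 1.31 and 1.29 at 1.5, 3, 7 and 14 dpci. These loci lie among members that vary together from library to library, in stretches defined after the spacing was seen. They are therefore not counted as 16 separate loci, and whether they share reads with members was not tested. The smallest fall of any of the 59 loci in the stretches was 0.39. Away from the stretches, 87 loci with a mean of at least 50 were next in number to a member, of which 41 (47.1%) were lower at all 4 times, with median falls of 0.39, 0.44, 0.26 and 0.21.

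**Figure D3:**
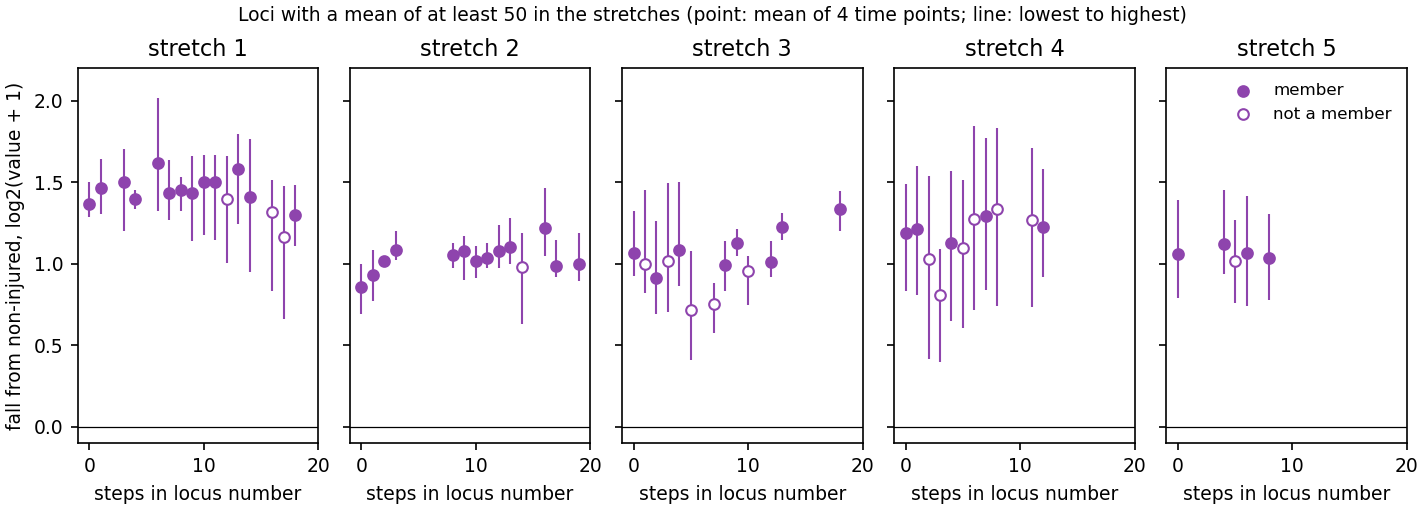
Fall from non-injured on the log2(value + 1) scale for the loci with a mean of at least 50 in each of the 5 stretches, against steps in locus number from the first member. Points are the mean of the 4 time points, lines run from the lowest to the highest, filled points are members and open points are not. All 59 loci lie above 0, which the rule fixes for the members but not for the other loci. The other loci lie among members that vary together and are not counted as separate loci. The members of stretch 1 have the highest mean falls on the whole, and the rule ranked members by their smallest fall.

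Members in the stretches and the other 107 members differed in course. In the stretches the median falls were 0.98, 1.19, 1.13 and 1.21 at 1.5, 3, 7 and 14 dpci, and outside them 1.20, 1.22, 0.95 and 0.93. A smaller fall late than early was found in 15 of 43 members in the stretches and in 84 of 107 outside. With the same total per library these counts were 1 of 43 and 56 of 107. Outside the stretches the medians were then 0.82, 0.93, 0.82 and 0.85 in order of time, without a drop from 1.5 to 14 dpci. These counts and medians are over single loci. The members of a stretch vary together, so the 43 stand for at most 5 sets and not for 43 separate loci. Stretches 2 and 3 also vary together from library to library, as given below. The 5 stretches also differed in course among themselves, as given above. No test was made.

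**Figure D4:**
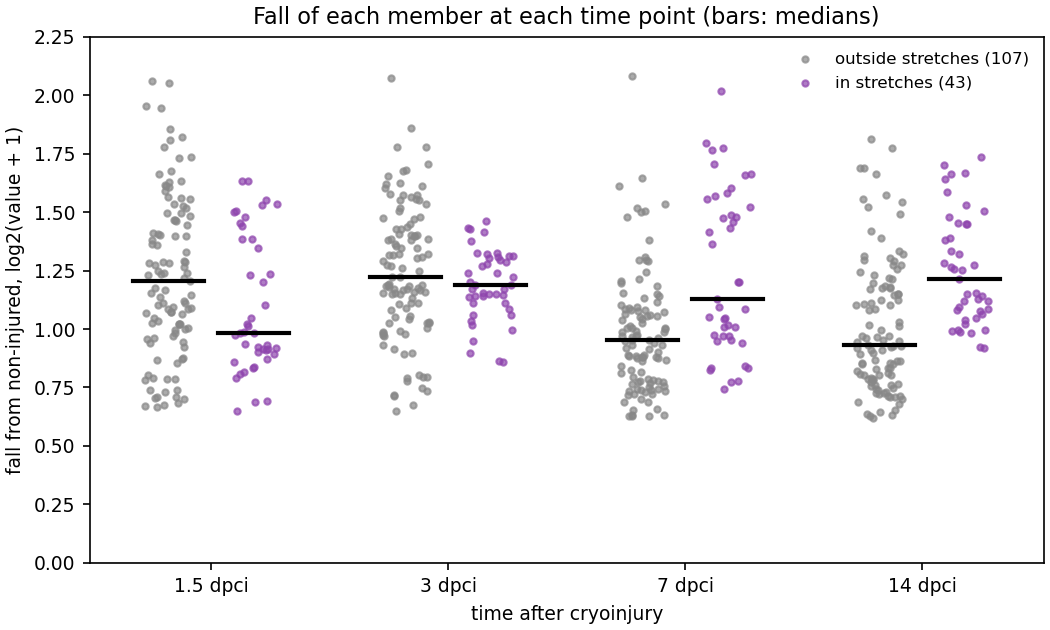
Fall of each member from non-injured on the log2(value + 1) scale at 4 times after cryoinjury, for the 107 members outside the stretches and the 43 in them. Black bars are medians. Under the deposited scaling the bars of the members outside go from 1.20 at 1.5 dpci to 0.93 at 14 dpci, and those of the members in the stretches from 0.98 to 1.21.

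Within groups, the members of a stretch rose and fell together from library to library. After the group means were removed, the mean pairwise Pearson correlation over the 20 libraries was 0.86 in stretch 1, 0.79 in stretches 2 and 4, 0.77 in stretch 3 and 0.67 in stretch 5. It was 0.25 over all member pairs, 0.22 among members outside the stretches, 0.14 in the raised set and 0.01 over loci with a mean of at least 50. Adjacent loci with a mean of at least 50 had a mean of 0.26, and adjacent members one of 0.84. The mean profiles of stretches 2 and 3 correlated with 0.87, and those of stretch 1 and 2 with 0.68. These points share library, size factor and depth, and are given as descriptions. The rule also chose the lowered and raised sets from these same values. Their correlations are therefore not a like comparison with that over all loci.

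Replicate 3 at 3 dpci stood apart in the stretches. Its median deviation from the group mean was -0.64 for the stretch members but -0.06 for the other members. In stretch 2 its median member was at -1.89 relative to the non-injured mean, while the other 3 libraries at 3 dpci were at -0.88 to -0.85. Without it, the median fall at 3 dpci was 0.99 in place of 1.19 in the stretches and 1.24 in place of 1.22 outside. Non-injured replicate 3 lay 0.37 above its group mean in the stretches and 0.20 above outside. Without that library the falls in the stretches were 0.86, 1.03, 1.01 and 1.08. Without replicate 3 of 3 dpci the rule took 144 of the 150 members again, and without non-injured replicate 3 it took 137. The share of stretch members among these is not given here.

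**Figure D5:**
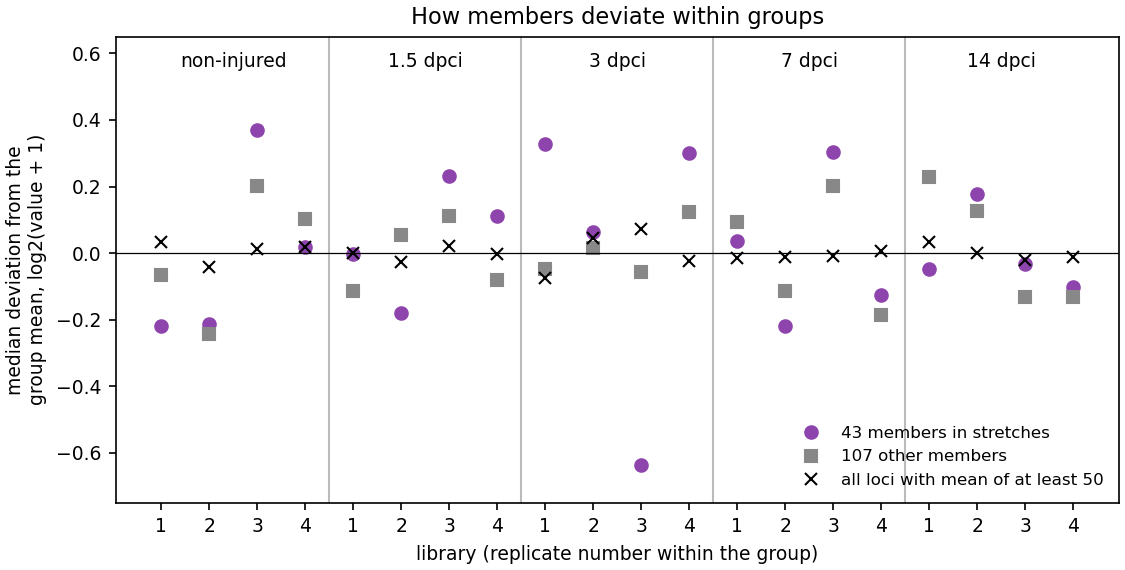
Median deviation from the group mean of log2(value + 1) in each library (horizontal axis, replicate number within 5 groups), for the 43 members in stretches, the 107 other members and the 20007 loci with a mean of at least 50. The median of all loci stays near 0, while members in the stretches reach -0.64 in replicate 3 of 3 dpci and 0.37 in replicate 3 of the non-injured group.

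The non-injured libraries differed among themselves in these loci. Replicates 1 and 2 had lower values than replicates 3 and 4 in 134 of 150 members (89.3%, beside 53.3% of loci with a mean of at least 50), with a median difference of -0.31. In 86 members (57.3%, beside 21.5% of loci with a mean of at least 50) both of replicates 1 and 2 were below both of replicates 3 and 4, and in 3 members (2%, beside 19.4%) they were above both. The lowest non-injured value was in replicate 2 in 74 members and in replicate 1 in 55, and the highest was in replicate 3 in 99. The rule chose and ranked the members by these same non-injured values. The shares of members and of all loci are therefore not a like comparison, and nothing is read from them.

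Along the first principal component of all loci, non-injured replicates 1 and 2 lay on the side of 7 and 14 dpci and replicates 3 and 4 on that of 1.5 and 3 dpci. The labels name no batch for these sides. Measured against replicates 1 and 2 alone, the median falls were 0.996, 1.04, 0.84 and 0.89, and the smallest fall of any member at any time was 0.40. Against replicates 3 and 4 alone the median falls were 1.26, 1.39, 1.14 and 1.17. The rule fixes that each member is lower against either pair, so only the size of the fall, which moved with the pair, is read from this. The injured library with the highest value of a member was most often replicate 3 of 7 dpci (29 members), replicate 1 of 14 dpci (26) or replicate 3 of 1.5 dpci (19).

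Under the deposited size factors the sum of all values was larger in each non-injured library than in each library of 1.5 and 3 dpci, except that replicate 3 of 3 dpci was above non-injured replicate 2. When all libraries were scaled to the same total, the median fall of all loci with a mean of at least 50 became -0.35, -0.26, -0.10 and -0.10 at 1.5, 3, 7 and 14 dpci. All 150 members were still lower at all 4 times on that scale, and the groups of 71 did not overlap. Over all loci with a mean of at least 50 on that scale, 209 had such groups, in place of 368. The 71 were 14 of the 43 members in stretches and 57 of the 107 outside. The median falls were then 0.60, 0.89, 0.996 and 1.13 in the stretches and 0.82, 0.93, 0.82 and 0.85 outside, and all 59 loci of the stretches were still lower at all 4 times.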

How the data were processed

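Library preparation, sequencing and analysis were done for the authors by a service provider. The kit was for stranded total RNA. The genome build was GRCz10 and the annotation Ensembl 90. Transcripts were assembled with Cufflinks, merged into loci with Cuffmerge and quantified with Cuffdiff, whose normalization used the median of the geometric mean. The deposited values are a signal: reads per locus divided by a size factor, not divided by length, although the methods name FPKM. Dividing each column by the value of 1 read gave whole reads (within 0.1) for 100% of values of up to 20 reads and for 99.8% to 100.0% of all values in 19 libraries. In 7 dpci replicate 1 the value of 1 read is close to 1, so it was used as normalized values only. Columns without a sample numbered 0, and the authors' name and position columns were not used.

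Differences were computed on log2(value + 1), which understates changes of low loci. limma 3.58.1 (trend, robust, 5 groups, all 20 libraries, R 4.3.3) was fitted over loci with any value above 0, with Benjamini-Hochberg adjustment. The labels do not say that libraries came from separate clutches, so spreads may be partly technical. Alternatives were other scalings, pseudocounts, filters, controls and models, leaving out each library, and limma-voom, edgeR 4.0.16 and DESeq2 1.42.0 on recovered reads, which cover 19 libraries. Scripts were tested on simulated data. The members and lists were chosen with earlier results of these data known. The 2 printed loci are the one with the largest smallest fall and the one with the highest non-injured mean, and others are given by rank. The first-ranked members of the stretches and ranks 6 and 120 were chosen after their values were seen.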

Additional observations from a re-analysis of the deposited data

Results flagged for a closer look

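Of 50 groups of 4 libraries looked at (the 2 printed loci, the 5 stretches, the members outside them, all members, and the share of the library held by members, each in 5 groups), 7 had 1 library far from the other 3, where chance gives about 2.5. For XLOC_059560, replicate 3 of 1.5 dpci had a log2(value + 1) of 9.18, and the others were between 8.48 and 8.57. The other 6 are medians over the members of a stretch, relative to the non-injured mean. In stretch 1, replicate 3 of 7 dpci was at -1.10, beside -1.77 to -1.69. In stretch 2, replicate 3 of 3 dpci was at -1.89, beside -0.88 to -0.85, and replicate 2 of 14 dpci at -0.91, beside -1.14 to -1.11. In stretch 3, replicate 3 of 3 dpci was at -1.67, beside -0.93 to -0.80, and replicate 2 of 7 dpci at -1.34, beside -0.99 to -0.92. In stretch 5, non-injured replicate 2 was at -0.24, beside 0.06 to 0.07. Members of a stretch vary together, and stretches 2 and 3 share their course over libraries, so these are not separate events.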

How the results depend on the processing

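The rule took 70 of the 150 members again with the same total per library, 56 with the controls reduced to non-injured replicates 3 and 4, and 70 with injured means within 0.5. Leaving out 1 library kept 87 to 147, with 87 without non-injured replicate 2 and 93 without replicate 1. With the same total, 209 lowered loci had groups that did not overlap in place of 368, 174 passed in place of 300, and 22 members taken lay within 5 numbers of another in place of 55 (alternatives for the spacing and the covariation were chosen after seeing the data). The median fall at 1.5 dpci was 0.74 with the same total, 0.996 against non-injured replicates 1 and 2, and 1.26 against 3 and 4. At 3 dpci it was 0.90 with the same total and 1.39 against 3 and 4, and at 14 dpci 0.89 against 1 and 2. Leaving out 1 library gave 1.08 to 1.20, 1.12 to 1.29, 0.91 to 1.05 and 0.98 to 1.12 at the 4 times. Members called at 7 and 14 dpci fell from 138 and 143 to 46 and 50 with the first principal component side as a term. They numbered 43 and 44 against non-injured replicates 1 and 2 alone, and 136 and 138 against 3 and 4 alone. Calls over all loci moved as well, as given below, and the cause was not tested. Leaving out 1 library gave 138 to 147, 140 to 148, 122 to 141 and 118 to 143 members called. edgeR called 146, 147, 129 and 141 members and DESeq2 148, 149, 140 and 147. The early calls moved as well. With the same total, 101 members were called at 1.5 dpci in place of 146 and 131 at 3 dpci in place of 148, beside 3532 and 3934 loci. Against non-injured replicates 1 and 2 alone, 113 and 120 members were called at these 2 times, beside 5457 and 5804 loci. The falls of members keep their direction under all controls by the rule itself. With the same total, the median fall of all loci with a mean of at least 50 turned from 0.03 to -0.35, -0.26 and -0.10 at 1.5, 3 and 7 dpci, and the members' median difference of late minus early fall from -0.11 to 0.12 (an alternative chosen after seeing the data).

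Same-numbered libraries did not deviate together (mean r of -0.02 over 40 pairs, with 9 over 0.1, and 2 of 20 libraries correlated best with their own number). With the replicate number as a block, 145, 147, 136 and 143 members were called. Over all loci, calls of lower values at 1.5 and 3 dpci numbered 6338 and 6488, and 3532 and 3934 with the same total. At 7 dpci there were 3412, but 1256 in a model of only the 8 libraries compared, 390 with the side term, 370 against non-injured replicates 1 and 2, 5571 against 3 and 4, 2231 by limma-voom, 2112 by edgeR, and 1651 to 4355 without 1 library. At 14 dpci there were 4151, but 1783, 554, 507 and 6257 under the first 4 of these and 2134 to 5372 without 1 library. Leaving out non-injured replicate 3 or 4 gave 1656 or 1651 calls at 7 dpci and 2134 or 2185 at 14 dpci, leaving out 7 dpci replicate 2 or 4 gave 2202 or 2205, and leaving out 14 dpci replicate 4 gave 2612. With as few as 15 reads behind a member, counting error adds to the spread of the lowest loci.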
